A study of Mus musculus with 12 samples.

Results

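The aminoacyl-tRNA synthetases were examined as 36 genes, of 23336 rows in the deposited count table, taken by their symbols. The set holds 20 cytosolic synthetase genes and 16 mitochondrial ones, whose symbols end in 2. All 36 passed the filter on low counts and were among the 11561 genes tested, so no member was lost to it. An aminoacyl-tRNA synthetase joins one amino acid to the tRNAs that carry it, which is the step that fixes the meaning of each codon before the ribosome reads it. All of them are encoded in the nucleus, and mammals keep separate genes for cytosolic and for mitochondrial translation, except that Gars and Kars each supply both compartments. Many cytosolic synthetase genes are textbook targets of ATF4, the transcription factor that the integrated stress response makes when amino acids run short or when eIF2 alpha is phosphorylated, and Wars is also known as an interferon-induced gene.

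The libraries came from B16, a mouse melanoma cell line. All cells had been transiently transfected with Cas9 and a guide RNA and then subcloned. Adar-null cells carried Adar sgRNA 1, directed at the gene of an RNA-editing enzyme that acts on double-stranded RNA, and control cells carried Non-targeting sgRNA 5. Both were then kept for 36 h with interferon-beta (IFNb, 1000 U per mL) or with a vehicle of phosphate-buffered saline and bovine serum albumin. This gave 4 groups of 3 libraries: control with vehicle, control with IFNb, Adar-null with vehicle and Adar-null with IFNb. Each genotype is 1 guide in subcloned cells, how many subclones stand behind it is not stated, and an interferon-gamma treatment named in the protocol was not analysed here. No label states whether replicate libraries are of separate cultures, and the p-values therefore measure only the spread between libraries, which may be technical.

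The libraries held 5375649 to 7153480 counts each. The members took 0.353 to 0.758% of a library, and the counts per library ran from 249 to 6879 for a cytosolic member and from 37 to 883 for a mitochondrial member other than Lars2. Adar, the targeted gene, stood at 74.2, 70.2 and 71.8 counts per 1000000 (CPM, after scaling of the library sizes) in the control libraries and at 65.5, 56.3 and 56.6 CPM in the Adar-null ones, both with vehicle. Under IFNb it stood at 377, 383 and 392 CPM in control cells and at 417, 422 and 383 CPM in Adar-null cells. The genotypes stood apart with vehicle (log2 difference of -0.28 ± 0.06, edgeR adjusted p = 0.0017) and overlapped with IFNb, and the count of a gene edited by a guide does not measure the loss of its protein. The 7 melanocyte markers had counts in every group, with group means of 205 to 5340 CPM per gene. The 6 leukocyte markers summed to at most 0.659 CPM in any library, and Cd3e was at 0 in all 12 libraries. The 6 fibroblast, endothelial and epithelial markers summed to at most 3.29 CPM, with Epcam and Krt8 at 0 throughout. The ribosomal RNA row Rn45s took 21.1 to 22.9% of counts with vehicle and 24.9 to 28.5% with IFNb. With that row removed before scaling, the counts of called members given below were the same, except that 9 and not 10 cytosolic genes rose in Adar-null cells.

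Most cytosolic synthetases fell with IFNb in control cells. Of the 20, 14 fell and 4 rose, and 8 fell by at least 2-fold. Over all genes tested, 53.0% passed the test in this comparison, 26.5% lower and 26.5% higher, and 2.77% were lower by at least 2-fold. The median log2 fold change was -0.93 over the cytosolic synthetases, -0.13 over the mitochondrial ones and 0.00 over all genes. Of the 16 mitochondrial genes 5 fell, 2 rose and 9 did not pass. The libraries with vehicle and with IFNb did not overlap for 14 cytosolic genes that were lower and 5 that were higher with IFNb, and for 6 and 2 mitochondrial genes, against 57.6% of all genes in either direction. A gene was called, here and throughout, at an adjusted p under 0.05 in edgeR's quasi-likelihood test with Benjamini-Hochberg adjustment over all genes tested, and errors after a log2 fold change are standard errors. In a bulk library, a lower level in every cell and a loss of the RNA from some of the cells cannot be told apart.

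**Figure D1:**
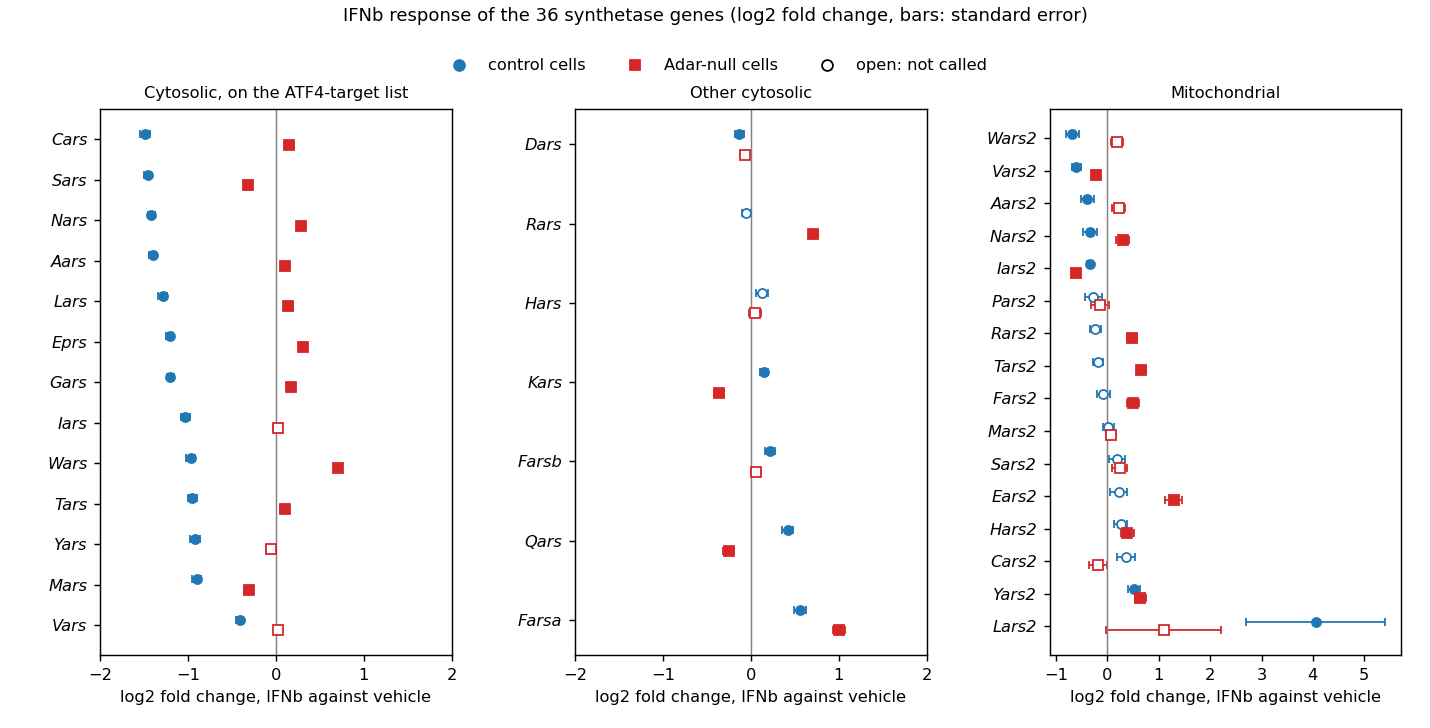
Log2 fold change with IFNb against vehicle (horizontal axis) for each of the 36 synthetase genes, in control and in Adar-null cells, with bars of 1 standard error. In control cells 14 of 20 cytosolic genes were called lower, and in Adar-null cells 10 were called higher and 4 lower.

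The 14 cytosolic genes that fell in control cells were Aars, Cars, Dars, Eprs, Gars, Iars, Lars, Mars, Nars, Sars, Tars, Vars, Wars and Yars. Of these, 13, all but Dars, are those usually listed as ATF4 targets. All 13 genes of that list fell, with log2 fold changes from -1.49 to -0.41 and a median of -1.20. The list was drawn up with earlier results of these data known, so its count is no independent evidence of a direction. Of the other 7 cytosolic genes (Dars, Farsa, Farsb, Hars, Kars, Qars and Rars), 4 rose and 1 fell, with changes from -0.13 to 0.56 and a median of 0.15. Dars, the aspartate enzyme, is the member of the 7 that fell, by 0.13 ± 0.05 on the log2 scale. Its call had an adjusted p of 0.0203 in edgeR and ended under 5 of 22 alternative settings, among them without library 1 or 2 of either control group, where the adjusted p reached up to 0.121.

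The promoters of both sides of that split are shown because the members of the ATF4 list moved together. The sequences are stretches of RefSeq promoter windows (GRCm38.p6), which run from 250 bases before to 50 bases after each gene's start, and 27 of the 36 members had a window. Cars, Hars, Lars, Nars, Rars, Vars, Wars, Hars2 and Pars2 had none. A pair of motifs was searched on both strands: TGATGNAA, the core of the site bound by C/EBP and ATF4 dimers, and GAAANNGAAA, the core of interferon-stimulated response elements. Capitals mark a match to TGATGNAA on either strand (TTNCATCA when read on the other), and each stretch of 100 bases is written 5′ to 3′ on the gene's own strand. The first 5 genes belong to the ATF4 list and hold a match, Sars belongs to it and holds none, and Kars and Qars lie outside it.
Aars (chr8:111033684-111033783, plus strand): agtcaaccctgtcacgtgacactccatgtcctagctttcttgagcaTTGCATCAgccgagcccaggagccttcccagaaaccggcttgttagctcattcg
Gars (chr6:55037901-55038000, plus strand): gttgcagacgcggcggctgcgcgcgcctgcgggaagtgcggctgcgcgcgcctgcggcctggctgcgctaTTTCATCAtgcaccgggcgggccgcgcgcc
Tars (chr15:11399659-11399758, minus strand): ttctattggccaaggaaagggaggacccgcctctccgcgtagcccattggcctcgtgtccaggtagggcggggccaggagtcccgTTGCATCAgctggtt
Iars (chr13:49682045-49682144, plus strand): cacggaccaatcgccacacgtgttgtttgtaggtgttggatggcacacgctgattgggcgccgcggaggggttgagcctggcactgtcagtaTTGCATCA
Yars (chr4:129189814-129189913, plus strand): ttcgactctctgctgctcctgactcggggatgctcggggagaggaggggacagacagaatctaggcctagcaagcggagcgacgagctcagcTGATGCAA
Sars (chr3:108445260-108445359, minus strand): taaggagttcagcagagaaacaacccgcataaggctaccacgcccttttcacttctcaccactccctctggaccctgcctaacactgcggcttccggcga
Kars (chr8:112011355-112011454, minus strand): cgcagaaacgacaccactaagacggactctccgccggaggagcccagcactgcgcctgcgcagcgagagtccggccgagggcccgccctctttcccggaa
Qars (chr9:108507905-108508004, plus strand): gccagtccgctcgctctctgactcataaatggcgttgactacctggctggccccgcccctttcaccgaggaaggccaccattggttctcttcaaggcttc

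The matches lay at bases -112 to -105 in Aars, -30 to -23 in Gars, -15 to -8 in Tars, 8 to 15 in Iars and 4 to 11 in Yars, counted from the first transcribed base as 1. Aars held a further match at bases 10 to 17. Of the 13 genes of the ATF4 list, 8 had a window. TGATGNAA was found in 5 of these 8 (62.5%), in 0 of the 5 windows of other cytosolic members and in 0 of the 14 mitochondrial windows. A place on a list of ATF4 targets and a match to an ATF4 site are not independent. The list was also drawn up with earlier results of these data known, so this contrast is a description and no test. Among all 32851 promoter windows of this length, 1304 held it (3.97%). GAAANNGAAA was found in 1 of the 27 windows, that of Qars at bases -199 to -190, against 1131 of all windows (3.44%). A match describes the letters in the window and is not a bound site, and the absence of one says only that these letters are not there.

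The steepest falls in control cells were in Cars and Sars, the cysteine and serine enzymes. Cars stood at 168, 175 and 181 CPM with vehicle and at 58.7, 64.6 and 62.5 CPM with IFNb. Its fall was 1.49 ± 0.06 on the log2 scale, or 2.82-fold. Sars went from 626, 620 and 623 CPM to 227, 228 and 226 CPM, and its log2 fold change was -1.46 ± 0.04. The groups were far apart for both genes, with no vehicle library less than 2-fold above an IFNb library. Nars, the asparagine enzyme, fell by 1.42 ± 0.04, Aars, the alanine enzyme, by 1.40 ± 0.04, Lars, the leucine enzyme, by 1.29 ± 0.05 and Gars, the glycine enzyme, by 1.20 ± 0.04 on the log2 scale. Eprs, the fused glutamate and proline enzyme, had 769, 806 and 739 CPM with vehicle and 351, 319 and 331 CPM with IFNb, a fold change of 2.32.

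Iars, the isoleucine enzyme, changed by -1.03 ± 0.05, Tars, the threonine enzyme, by -0.95 ± 0.05, Yars, the tyrosine enzyme, by -0.92 ± 0.06 and Mars, the methionine enzyme, by -0.90 ± 0.05 on the log2 scale. Vars, the valine enzyme, had the smallest change of the ATF4 list, at -0.41 ± 0.04. Wars, the tryptophan enzyme, fell as well. It stood at 268, 270 and 257 CPM in control cells with vehicle and at 140, 127 and 140 CPM with IFNb, a log2 fold change of -0.97 ± 0.05 with an edgeR adjusted p of 4.55e-37.

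The cytosolic genes that rose in control cells did so by less. Farsa, the alpha subunit of the phenylalanine enzyme, had 43.7, 46.3 and 45.3 CPM with vehicle and 64.4, 68.8 and 66.4 CPM with IFNb, a log2 fold change of 0.56 ± 0.07. Farsb, its beta subunit, changed by 0.22 ± 0.06. Qars, the glutamine enzyme, had 100, 102 and 94.1 CPM with vehicle and 129, 129 and 137 CPM with IFNb, and rose by 0.42 ± 0.06. Kars, the lysine enzyme, stood at 117, 116 and 110 CPM and at 129, 121 and 131 CPM, a change of 0.15 ± 0.05. The Kars libraries lie close together, and its call ended under 6 of 22 alternatives, with edgeR or DESeq2 adjusted p up to 0.277, among them without library 1 or 3 of control with IFNb or library 3 of control with vehicle. Rars, the arginine enzyme, at -0.05 ± 0.05, and Hars, the histidine enzyme, at 0.13 ± 0.07, did not pass.

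**Figure D2:**
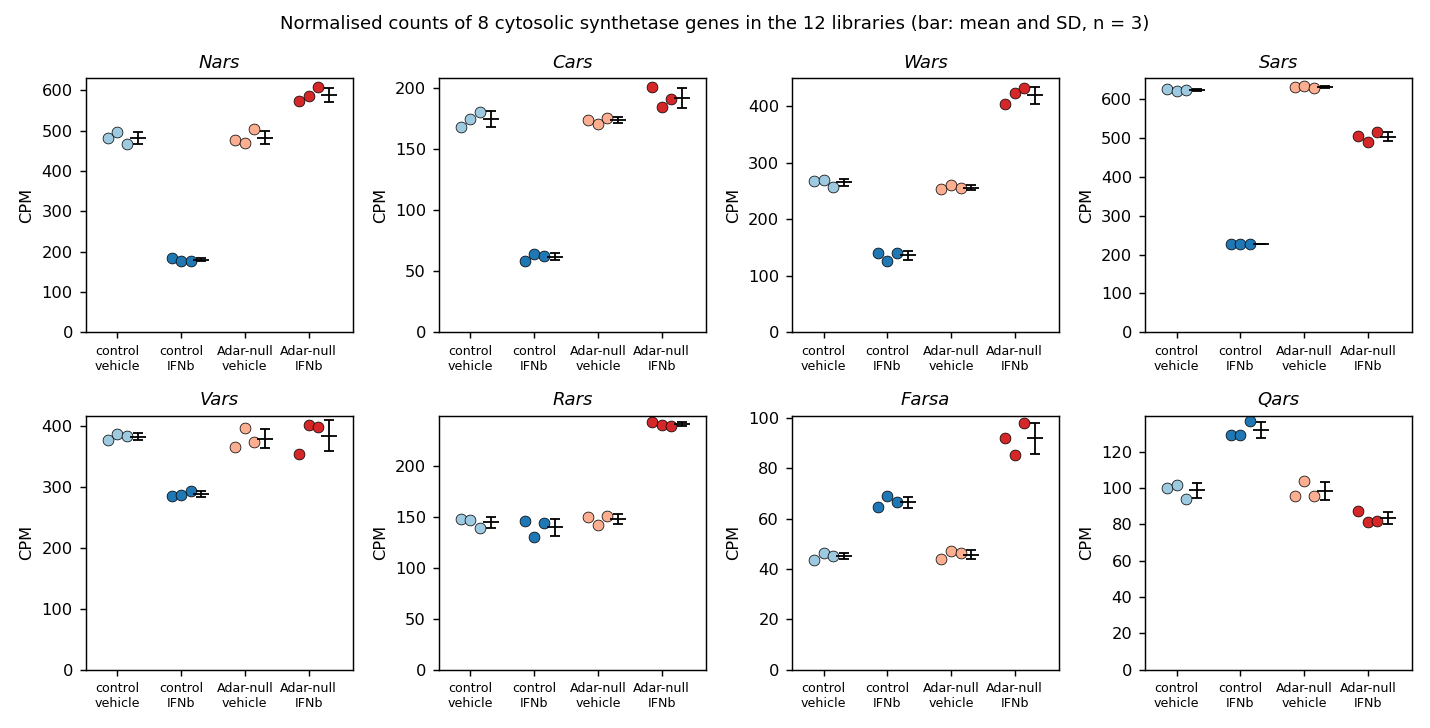
CPM of Nars, Cars, Wars, Sars, Vars, Rars, Farsa and Qars in each of the 12 libraries by group (points), with the mean and SD over 3 libraries. For Nars the control libraries with IFNb sit between 177 and 184 CPM, below all other libraries, while the Adar-null libraries with IFNb sit between 574 and 608 CPM, above all others.

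Among the mitochondrial genes in control cells, Wars2 and Vars2 had the steepest falls. Wars2 stood at 16.8, 21.4 and 20.4 CPM with vehicle and at 11.7, 11.7 and 13.2 CPM with IFNb, a log2 fold change of -0.68 ± 0.13. Vars2 stood at 43.7, 47.4 and 52.1 CPM and at 30.9, 31.1 and 32.4 CPM, a change of -0.60 ± 0.09. The groups did not overlap for either gene. Aars2 (-0.39 ± 0.13), Iars2 (-0.34 ± 0.05) and Nars2 (-0.34 ± 0.14) also fell. The call of Aars2 ended without library 3 of control with vehicle (edgeR adjusted p = 0.0508), and that of Nars2 ended under 5 of 22 alternatives, with edgeR or DESeq2 adjusted p up to 0.133, 4 of them the loss of 1 library (1 or 2 of control with IFNb, 2 or 3 of control with vehicle).

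Yars2, the mitochondrial tyrosine enzyme, rose in control cells, from 16, 16 and 17.5 CPM to 25.6, 22.4 and 23.2 CPM, a log2 fold change of 0.52 ± 0.12. The other called rise was Lars2, whose libraries differed most within a group. Lars2, the mitochondrial leucine enzyme, stood at 39.8, 34.9 and 75 CPM in control cells with vehicle and at 1758, 167 and 552 CPM with IFNb. Its log2 fold change was 4.05 ± 1.36 with an edgeR adjusted p of 0.0292. It was 2.85 with an adjusted p of 0.104 without library 1 of control with IFNb, and the call also ended without any 1 of the 3 vehicle libraries (adjusted p of 0.0857, 0.0911 and 0.0652 in edgeR). The cause of the spread was not tested. Of the mitochondrial genes, 1 was called higher in control cells without library 2 or without library 3 of control with vehicle, and 3 were called lower without the latter.

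**Figure D3:**
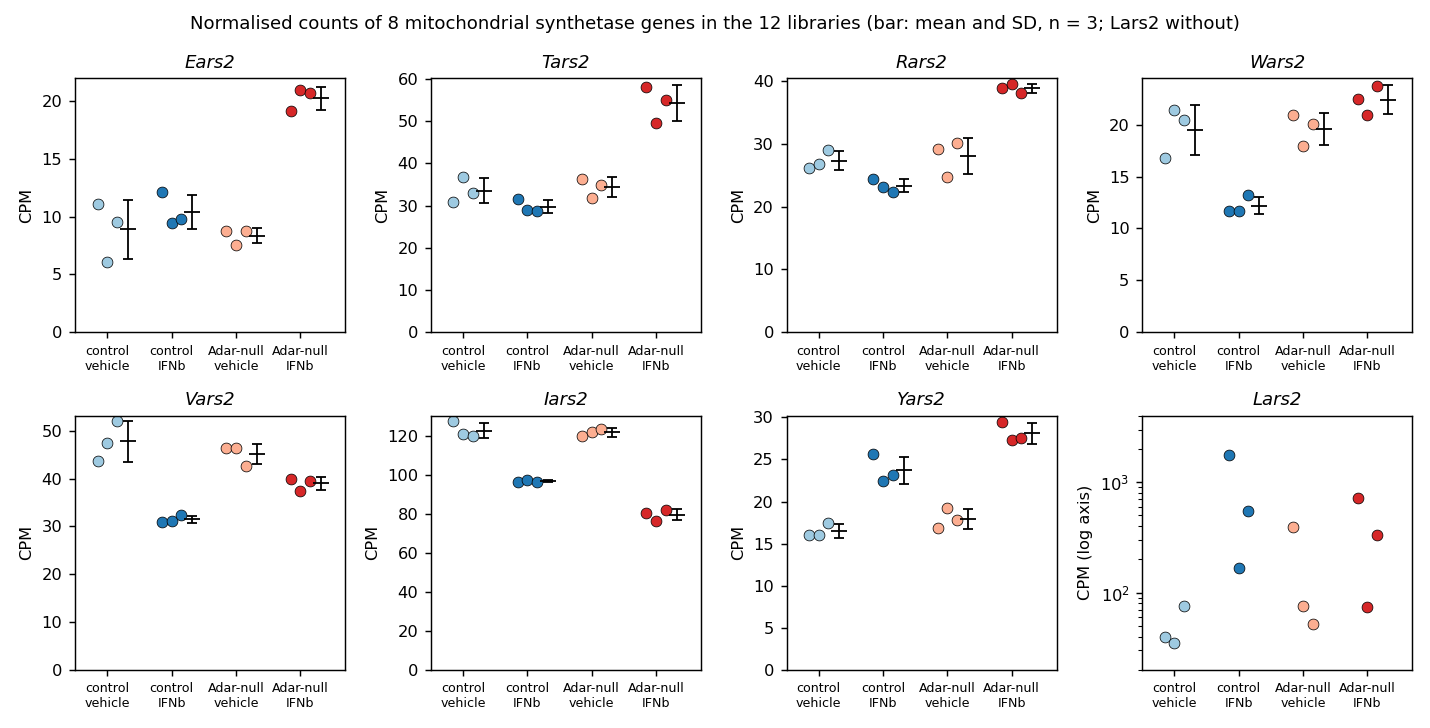
CPM of 8 mitochondrial synthetase genes in each of the 12 libraries by group (points), with the mean and SD over 3 libraries except for Lars2, whose axis is logarithmic. Lars2 ranges from 34.9 to 1758 CPM over the libraries, while for Tars2 and Ears2 the Adar-null libraries with IFNb lie above all others.

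With vehicle, no synthetase gene was called between the genotypes. The edgeR test called 0 of 36, against 6.51% of all genes tested. At an unadjusted p under 0.05 it called 4, all cytosolic (Dars, Eprs, Iars and Mars), or 11.1% of the members against 19.5% of all genes. DESeq2 and limma-voom also called 0. The median log2 fold change was 0.02 over the cytosolic and 0.01 over the mitochondrial members. Groups that did not overlap were counted for 3 cytosolic and 0 mitochondrial genes, against 22.3% of all genes tested.

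In Adar-null cells the cytosolic synthetases moved in both directions with IFNb. Of the 20, 10 rose, 4 fell and 6 did not pass, where 72.3% of all genes tested were called, 36.6% higher and 35.7% lower. The median log2 fold change was 0.08 over the cytosolic genes and 0.01 over all genes. The split depends on the scaling: with library size alone, which moved the median of all genes by -0.09, 6 rose and 6 fell and the cytosolic median was -0.01. The share of members called is near that of all genes. The groups did not overlap for 11 cytosolic genes with higher and 4 with lower levels under IFNb, and for 8 and 2 mitochondrial genes, against 73.7% of all genes. In the same comparison all 6 proliferation reference genes fell, among them Top2a by 4.22 ± 0.06 on the log2 scale, and their part in the levels of the synthetases was not tested.

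Of the 13 genes of the ATF4 list, 8 rose in Adar-null cells (Aars, Cars, Eprs, Gars, Lars, Nars, Tars and Wars), 2 fell (Mars and Sars) and 3 did not pass (Iars, Vars and Yars). Of all genes tested 36.6% were called higher and 35.7% lower. The median over the list was 0.10, and the changes ran from -0.32 to 0.71. Wars rose most of the list, from 253, 261 and 256 CPM with vehicle to 403, 423 and 432 CPM, a log2 fold change of 0.71 ± 0.04. Nars went from 478, 470 and 503 CPM to 574, 585 and 608 CPM, a change of 0.29 ± 0.04, and Eprs from 799, 816 and 855 CPM to 1015, 1015 and 1025 CPM, a change of 0.31 ± 0.04. In all 3 genes every IFNb library stood above every vehicle library.

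Cars had 174, 171 and 176 CPM with vehicle in Adar-null cells and 201, 185 and 191 CPM with IFNb, a log2 fold change of 0.15 ± 0.05. The small rises of Cars, Aars (0.10 ± 0.04), Lars (0.14 ± 0.05) and Tars (0.10 ± 0.05) were no longer called with library size alone. That of Tars, at an edgeR adjusted p of 0.0474, ended under 16 of 22 alternatives, 10 of them the loss of 1 library (any but library 1 of Adar-null with IFNb and library 3 of Adar-null with vehicle). The call also ended for Cars without library 1 of Adar-null with IFNb, for Lars without library 2 of Adar-null with vehicle, and for Aars without library 2 or 3 of Adar-null with IFNb or library 1 of Adar-null with vehicle. Gars, at 0.17 ± 0.04, stayed called under each alternative run. Sars is the member of the list that fell most, from 631, 632 and 628 CPM to 505, 490 and 515 CPM, a log2 fold change of -0.32 ± 0.04. Mars fell by 0.31 ± 0.05 on the same scale.

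Outside the ATF4 list, 2 cytosolic genes rose in Adar-null cells and 2 fell. Farsa rose from 43.8, 47.2 and 46.3 CPM with vehicle to 92.1, 85.4 and 98 CPM with IFNb, a log2 fold change of 1.00 ± 0.07. Farsb, which makes the other subunit of the same enzyme, changed by 0.06 ± 0.06 and did not pass. Rars stood at 150, 142 and 151 CPM and at 244, 241 and 240 CPM, a change of 0.71 ± 0.05. Rars is the arginine enzyme of the multisynthetase complex, a particle that holds 8 of the cytosolic synthetases on a scaffold. Kars fell from 114, 126 and 113 CPM to 95.5, 86.3 and 95 CPM, by 0.36 ± 0.06 on the log2 scale. Qars had 95.5, 104 and 95.8 CPM with vehicle and 87.2, 81.1 and 82 CPM with IFNb, a change of -0.25 ± 0.06.

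Of the 16 mitochondrial genes, 7 rose in Adar-null cells with IFNb and 2 fell, and the median log2 fold change was 0.27. Of all genes tested 72.3% were called, 36.6% higher and 35.7% lower, so the count of rises does not set these genes apart. Ears2, the mitochondrial glutamate enzyme, had the largest called change, from 8.73, 7.58 and 8.72 CPM to 19.1, 20.9 and 20.7 CPM, a log2 fold change of 1.29 ± 0.16. Tars2, the mitochondrial threonine enzyme, rose from 36.4, 31.9 and 34.9 CPM to 58.1, 49.5 and 55.1 CPM, by 0.66 ± 0.09. The groups of both genes stood apart. Yars2 rose from 16.8, 19.2 and 17.8 CPM to 29.5, 27.3 and 27.5 CPM (0.64 ± 0.11). Fars2 (0.50 ± 0.12), Rars2 (0.48 ± 0.10), Hars2 (0.39 ± 0.12) and Nars2 (0.30 ± 0.13) rose too. The call of Hars2 ended without library 1 of Adar-null with IFNb (edgeR adjusted p = 0.0588), and that of Nars2 ended under 6 of 22 alternatives, including without library 1 or 2 of Adar-null with IFNb or library 2 or 3 of Adar-null with vehicle. Hars2 overlaps the start of Hars on the opposite strand, and since the strand setting of the counting is not stated, reads of the pair may not be fully told apart.

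Iars2, the mitochondrial isoleucine enzyme, fell in both genotypes. It stood at 128, 121 and 120 CPM in control cells with vehicle and at 96.5, 97.6 and 96.7 CPM with IFNb, while in Adar-null cells it stood at 120, 122 and 124 CPM and at 80.8, 76.4 and 82.3 CPM. The log2 fold changes were -0.34 ± 0.05 and -0.61 ± 0.06. Vars2 also fell in Adar-null cells, from 46.4, 46.5 and 42.7 CPM to 39.9, 37.5 and 39.5 CPM (-0.22 ± 0.08), a call that ended under 3 of 22 alternatives, among them without library 2 of Adar-null with IFNb or with vehicle (edgeR or DESeq2 adjusted p up to 0.0595). Lars2 had 396, 75.1 and 52.3 CPM with vehicle and 721, 74.8 and 332 CPM with IFNb in Adar-null cells, overlapping groups with a log2 fold change of 1.10 ± 1.12 that did not pass.

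The difference between the genotypes under IFNb was tested directly. Adar-null cells had higher levels than control cells for 15 of 20 cytosolic genes, 10 of them by at least 2-fold, and lower levels for 2. Among all genes tested 72.6% were called, 36.4% were called higher, 8.75% were called higher by at least 2-fold, and 36.2% were called lower. The median log2 difference was 0.99 over the cytosolic members, 0.28 over the mitochondrial ones and 0.02 over all genes. All 13 of the ATF4 list were higher in Adar-null cells, with differences from 0.42 to 1.71 and a median of 1.40, while of the other 7 cytosolic genes 2 were higher and 2 lower, with a median of -0.06. Nars had the largest difference of the cytosolic genes, at 1.71 ± 0.04 or 3.28-fold. Cars at 1.63 ± 0.06, Wars at 1.63 ± 0.05 and Eprs at 1.61 ± 0.04 followed within their errors of each other. Qars (-0.66 ± 0.06) and Kars (-0.46 ± 0.06) were the cytosolic genes at lower levels in Adar-null cells. The libraries of the genotypes did not overlap for 15 cytosolic genes with higher and 3 with lower levels in Adar-null cells, and for 9 and 1 mitochondrial genes, against 74.0% of all genes.

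Among the 16 mitochondrial genes 9 were higher in Adar-null than in control cells with IFNb and 2 were lower, against 36.4% and 36.2% of all genes tested. Ears2, at 12.1, 9.43 and 9.75 CPM in control cells with IFNb, differed by 0.97 ± 0.15, and Wars2, at 22.5, 20.9 and 23.7 CPM in Adar-null cells with IFNb, by 0.87 ± 0.13. Tars2, with 31.5, 29.1 and 28.8 CPM in control cells with IFNb, differed by 0.86 ± 0.09. The Adar-null libraries lay above the control libraries for all 3 genes. Cars2, the mitochondrial cysteine enzyme, was lower in Adar-null cells with IFNb, at 9.84, 9.01 and 7.58 CPM against 9.42, 14.1 and 13.6 CPM in control cells with IFNb, a difference of -0.52 ± 0.17 in which the groups overlapped. Its vehicle libraries held 10.7, 9.39 and 9.2 CPM in control cells and 8.55, 12.5 and 8.01 CPM in the Adar-null ones. Yars2 was called higher by 0.24 ± 0.11 with an edgeR adjusted p of 0.0311, and that call ended under 7 of 22 alternatives, 5 of them the loss of 1 library (any of Adar-null with IFNb, or 2 or 3 of control with IFNb), with adjusted p up to 0.157.

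The interaction, which compares the IFNb response of Adar-null cells with that of control cells, shares its libraries with the comparisons above. It was called with a more positive response in Adar-null cells for 15 of 20 cytosolic genes, 10 of them by at least 2-fold, and a more negative one for 2. Of all genes tested 59.3% were called, 28.6% with a more positive and 30.7% with a more negative response, and 7.86% were more positive by at least 2-fold. Of the 16 mitochondrial genes 8 were called more positive and 2 more negative. The median was 0.95 over the cytosolic genes, 0.25 over the mitochondrial ones and 0.01 over all genes. For Nars the responses differed by 1.71 ± 0.06, for Wars by 1.68 ± 0.07 and for Cars by 1.64 ± 0.07. Of the 20 cytosolic genes, 8 fell in control cells and rose in Adar-null cells, all of them on the ATF4 list, and 2, Kars and Qars, rose in control cells and fell in Adar-null cells. With library size alone 4 of the 8 (Eprs, Gars, Nars and Wars) were still called higher in Adar-null cells, and Kars was no longer called in control cells. Nars2 is the mitochondrial gene that fell in control cells and rose in Adar-null cells, and with library size alone its rise was not called. The share of all genes called in opposite directions in the genotypes was not counted, so these counts stand without a background. Sars fell in both genotypes, and its responses differed by 1.13 ± 0.06, with the steeper fall in control cells.

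Rars, which did not pass in control cells with 148, 147 and 139 CPM against 146, 131 and 144 CPM, differed in its response by 0.76 ± 0.07. Tars2 (0.84 ± 0.13), Ears2 (1.06 ± 0.23), Wars2 (0.87 ± 0.18) and Rars2 (0.71 ± 0.14) had the largest positive interactions of the mitochondrial genes. Tars2 stood at 30.9, 36.9 and 33 CPM and Ears2 at 11.1, 6.09 and 9.56 CPM in control cells with vehicle, and neither passed between vehicle and IFNb in control cells. In Adar-null cells with vehicle Wars2 stood at 20.9, 17.9 and 20.1 CPM. Iars2 (-0.27 ± 0.08) and Cars2 (-0.54 ± 0.24) had negative interactions. That of Cars2 had an edgeR adjusted p of 0.0477 and ended under 12 of 21 alternatives, 7 of them the loss of 1 library (library 2 of any group, or library 3 of any but Adar-null with vehicle). It was -0.28 with an edgeR adjusted p of 0.371 without library 2 of Adar-null with vehicle. Lars2, at -2.94 ± 1.76, did not pass (edgeR adjusted p = 0.183). The members called in no IFNb comparison within a genotype were Hars, Cars2, Mars2, Pars2 and Sars2.

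Summed over genes, the 20 cytosolic synthetases amounted in control cells to 5892 ± 92.6 CPM with vehicle (SD, n = 3) and to 3097 ± 27.9 CPM with IFNb. In Adar-null cells the sums were 6007 ± 77.6 CPM and 6636 ± 106 CPM. The fall in control cells was in the ATF4 list, which summed to 5190 ± 76 CPM with vehicle and 2326 ± 11.1 CPM with IFNb, while the other 7 genes summed to 703 ± 19.1 CPM and 771 ± 18.3 CPM. The 15 mitochondrial genes other than Lars2 summed to 403 ± 8.06, 351 ± 1.63, 403 ± 9.51 and 431 ± 20 CPM in the 4 groups, vehicle before IFNb and control before Adar-null. The ratio of the cytosolic to the mitochondrial sum, without Lars2, was 14.6 ± 0.476 in control cells with vehicle and 8.82 ± 0.0997 with IFNb, and 14.9 ± 0.52 and 15.4 ± 0.861 in Adar-null cells. Lars2 was left out after its spread had been seen, and with it the 4 ratios were 13, 3.62, 11.2 and 9.34 in the same order.

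**Figure D4:**
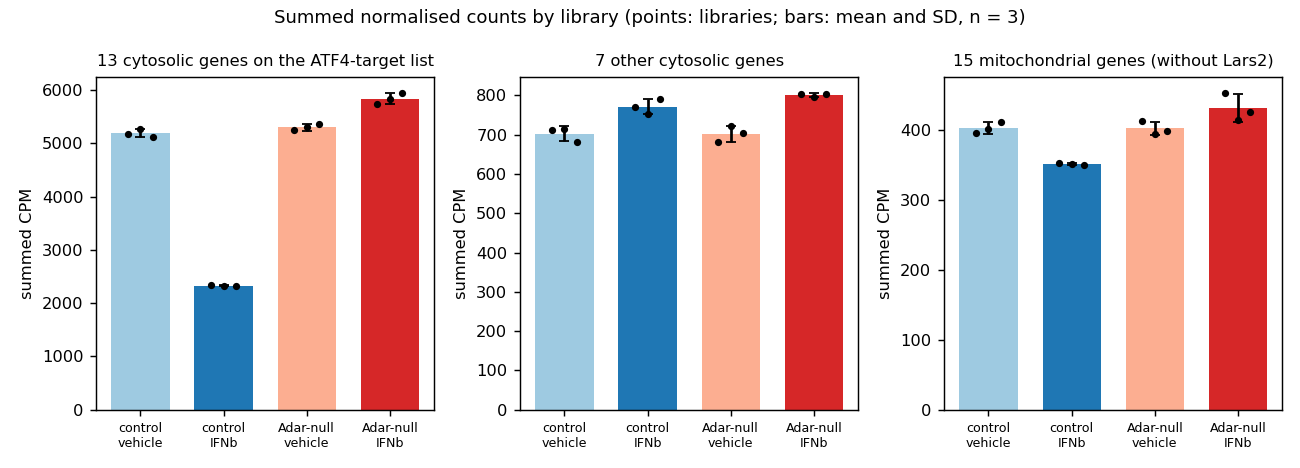
Summed CPM of the cytosolic synthetases of the ATF4 list, of the other cytosolic synthetases and of the mitochondrial synthetases without Lars2 in each library by group, with the mean and SD over 3 libraries. The ATF4 list sums to between 2313 and 2334 CPM in control cells with IFNb and to at least 5118 CPM in every other library.

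Read per length, as CPM per kilobase of annotated exon, the cytosolic genes had the higher median in every group, and the ranges overlapped. In control cells with vehicle the median level was 42 CPM per kilobase over the cytosolic genes and 3.64 over the mitochondrial genes. The cytosolic levels ran from 9.93 for Farsa to 288 for Gars, and the mitochondrial ones from 1.35 for Cars2 to 13.9 for Iars2, above Farsa. With IFNb in control cells the cytosolic median was 24.7 and the mitochondrial median 3.56 CPM per kilobase, with Lars2 at 74.5, above each cytosolic gene but Gars at 126. In Adar-null cells the cytosolic medians were 45.4 with vehicle and 42.2 with IFNb, and the mitochondrial ones 3.59 and 4.52. The lengths are unions of all annotated exons, which makes the levels of genes with many long transcripts lower.

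Set side by side for the same amino acid, the members form 17 pairs of a cytosolic and a mitochondrial gene, in which Eprs and Fars2 each occur more than once. The cytosolic gene had the lower log2 fold change in 13 of the 17 pairs in control cells, with a median difference of -0.92. In Adar-null cells it was the lower one in 10 of 17, with a median difference of -0.11. The pairs for tyrosine and leucine were called in opposite directions in control cells, where Yars and Lars fell and Yars2 and Lars2 rose. The pair of Lars and Lars2 has the widest difference, at -5.34, and rests on the Lars2 call that single libraries end. Pairs share one fit and the libraries, and these counts are a description with no test.

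**Figure D5:**
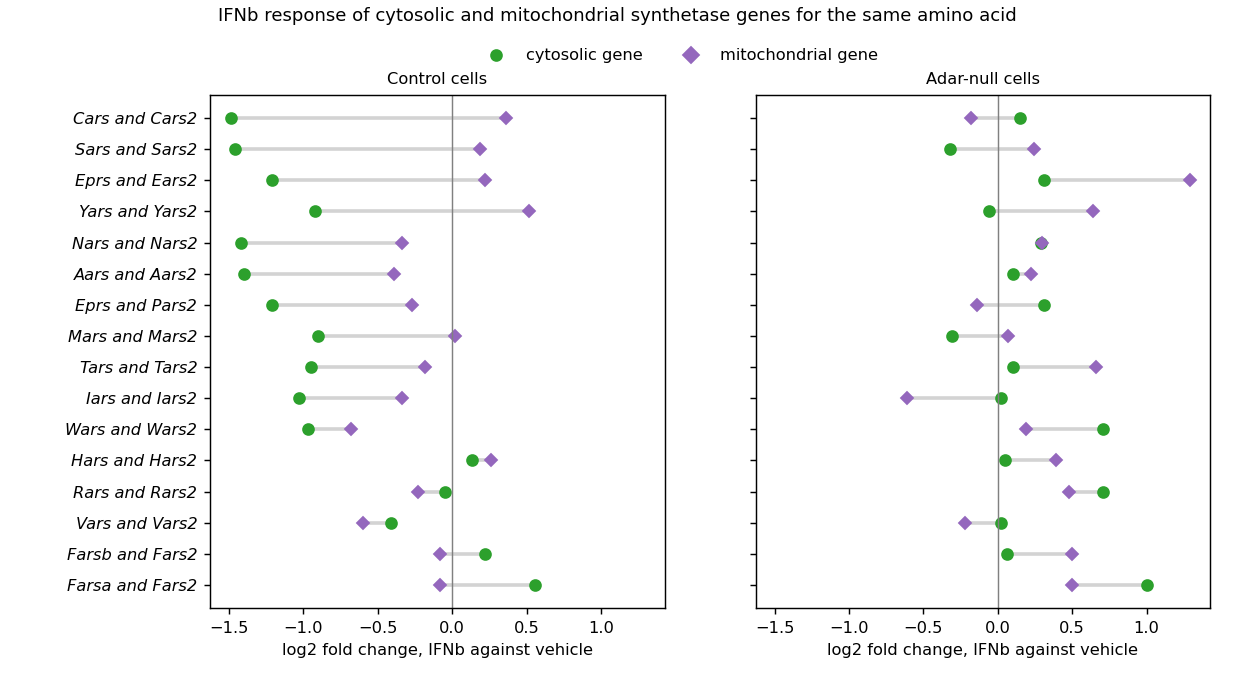
Log2 fold change with IFNb against vehicle (horizontal axis) of the cytosolic gene (circle) and the mitochondrial gene (diamond) for the same amino acid, in control and in Adar-null cells, with a grey line joining each pair. The 16 pairs without Lars2 are drawn, and over all 17 the cytosolic gene was the lower in 13 in control cells and in 10 in Adar-null cells.

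Genes that fell and genes that rose were found in both structural classes of the enzymes, which differ in the fold of the catalytic domain. In control cells 26.5% of all genes tested were called lower and 26.5% higher. Of the 10 cytosolic members with the class I fold 8 fell and 1 rose there (median -0.94), and of the 10 with the class II fold 6 fell and 3 rose (median -0.54). The 8 synthetases of the multisynthetase complex (Dars, Eprs, Iars, Kars, Lars, Mars, Qars and Rars) were mixed as well, with 5 that fell, 2 that rose and a median of -0.52. Of the scaffold proteins of that complex, Aimp1 fell in control cells (-0.41 ± 0.09), while Aimp2 (0.54 ± 0.10) and Eef1e1 (0.25 ± 0.09) rose. In Adar-null cells Eef1e1 rose by 0.74 ± 0.08, and Aimp1 (-0.16 ± 0.09) and Aimp2 (0.19 ± 0.10) did not pass. The differences between these subsets were not tested.

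Amino acid deprivation and eIF2 alpha signalling were read from a list of 13 tested genes, of which 7 fell and 3 rose in control cells, where 53.0% of all genes were called. In Adar-null cells 8 rose and 3 fell, where 72.3% of all genes were called. The genes that fell in control cells were Atf4, Asns, Chac1, Ddit3, Ppp1r15a, Sesn2 and Trib3. Those that rose there were Eif2ak1, Eif2ak2 and Eif2s1, while Eif2ak3, Eif2ak4 and Gcn1l1 did not pass. Atf4 itself stood at 591, 597 and 605 CPM in control cells with vehicle and at 147, 149 and 150 CPM with IFNb, a log2 fold change of -2.01 ± 0.04. In Adar-null cells it stood at 613, 616 and 622 CPM and at 599, 640 and 636 CPM, a change of 0.02 ± 0.04 that did not pass, and its responses differed by 2.02 ± 0.06. Trib3, a pseudokinase that restrains ATF4, fell by 4.49 ± 0.09 in control cells and rose by 0.99 ± 0.04 in Adar-null cells on the log2 scale, and Chac1, a glutathione-degrading enzyme of the same response, fell by 3.33 ± 0.09 and rose by 0.65 ± 0.05. Ppp1r15a, a phosphatase subunit that reverses eIF2 alpha phosphorylation, changed by -2.21 ± 0.10 and by 2.41 ± 0.06, and Ddit3, a transcription factor induced by ATF4, by -0.55 ± 0.06 and by 1.42 ± 0.05. Sesn2 changed by -1.20 ± 0.07 in control cells and by 0.68 ± 0.05 in Adar-null cells. Asns did not share the rise in Adar-null cells. It fell in both genotypes, by 2.18 ± 0.04 in control and by 0.23 ± 0.04 in Adar-null cells on the log2 scale.

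For the eIF2 alpha kinases and eIF2 alpha itself, which act above ATF4, no difference of the responses was called. Eif2ak2, the interferon-induced eIF2 alpha kinase that double-stranded RNA activates, stood at 37.6, 33.8 and 38.1 CPM in control cells with vehicle and at 243, 257 and 233 CPM with IFNb, a log2 fold change of 2.75 ± 0.07. In Adar-null cells it rose by 2.67 ± 0.07, and the difference of the responses, -0.07 ± 0.09, did not pass (edgeR adjusted p = 0.529). Eif2ak1, another eIF2 alpha kinase, rose by 0.47 ± 0.07 and 0.27 ± 0.07 in control and Adar-null cells, and Eif2s1, which encodes eIF2 alpha, by 0.29 ± 0.07 and 0.32 ± 0.07. Eif2ak3 did not pass in either (-0.13 ± 0.07 and -0.12 ± 0.07). Eif2ak4, the kinase that senses uncharged tRNA, changed by -0.02 ± 0.09 in control cells, which did not pass, and fell by 0.30 ± 0.10 in Adar-null cells. The responses of Eif2ak4 differed by -0.28 ± 0.13 (edgeR adjusted p = 0.0583) and those of Eif2ak1 by -0.20 ± 0.10 (edgeR adjusted p = 0.0819). Both lie near the cutoff. Compared directly under IFNb, Eif2ak2 (-0.23 ± 0.05) and Eif2ak4 (-0.38 ± 0.10) were lower in Adar-null than in control cells. Eif2ak1, Eif2ak3 and Eif2s1 were not called there. Gcn1l1, a further gene of the list, had a called difference of the responses, at -0.30 ± 0.07. These are mRNA levels, and the activity of the kinases was not measured.

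Other steps around tRNA charging were counted in the same way, against 53.0% of all genes called in control cells (26.5% in each direction) and 72.3% in Adar-null cells (36.6% higher and 35.7% lower). Of 8 tested genes for tRNA export and end processing, 3 fell and 2 rose in control cells and 4 rose and 1 fell in Adar-null cells. Xpot, the exporter of tRNA from the nucleus, fell in control cells by 1.40 ± 0.06 on the log2 scale and did not pass in Adar-null cells (-0.09 ± 0.05), with a difference of the responses of 1.31 ± 0.08. Of 9 genes listed with the elongation factors, 4 fell and 1 rose in control cells. In Adar-null cells 7 of them fell and 1 rose, and Eef1a1 fell by 1.12 ± 0.03 on the log2 scale. Of 5 genes for selenocysteine 1 fell in control cells, and 2 rose and 2 fell in Adar-null cells. Of the 3 tested genes for mitochondrial aminoacyl-tRNA modification, 0 were called in control cells and 1 rose in Adar-null cells. Of 6 further synthetase-like and editing genes, 2 fell and 1 rose in control cells, and 4 fell and 1 rose in Adar-null cells, where Tarsl2 had a log2 fold change of -1.40 ± 0.22 and Prorsd1 one of 0.74 ± 0.15.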

How the data were processed

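Reads per gene were deposited by the authors as raw counts in 1 table with a column for each of the 12 libraries. Libraries were made from ribosomal RNA-depleted total RNA with a kit that keeps strand and sequenced in pairs, per the labels' protocols. The submitters' processing notes name bcl2fastq 2.19.1, Trimmomatic 0.33, Bowtie2 2.2.4, HTSeq 0.6.1p1, DESeq2 and the build mm10. Their order and settings, including how strand was handled in counting and which gene models were used, are not stated in the sources at hand.

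Groups follow the labels' guide and treatment. The deposited counts were fitted in R 4.3.3 with edgeR 4.0.16: default filter on low counts, TMM scaling, one quasi-likelihood fit over the 4 groups, 5 contrasts, and Benjamini-Hochberg adjustment over all 11561 genes tested. A standard error is the Wald error from the fitted variance, not below counting error. CPM uses the TMM-scaled library sizes, and CPM per kilobase the exon union of GENCODE M21 (GRCm38). Promoter windows are RefSeq's. The test was tried on simulated data with known changes. Precision is set by counts per gene and 3 libraries a group, and counting error is a lower bound on the spread. Over all genes tested, chi-square over its degrees of freedom was 1.47 to 3.28 for pairs of replicates, above sampling noise in each pair. No batch is given in the labels.

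All members are named. Values in every library are given for Wars, for the 2 largest called rises and falls of each class in each comparison, and for up to 4 genes with opposite called changes in the genotypes. Eprs is given by the same rule. From each related list at most the 3 largest changes in each comparison are named. In addition, after their values were seen, Atf4, Asns, Sesn2, the other eIF2 alpha kinases, Eif2s1 and Gcn1l1 are named. Members, lists and the division by ATF4 were chosen with earlier results of these data known. Alternatives were other scalings, filters and tests (DESeq2 1.42.0, limma 3.58.1 voom), the fit of only the groups compared, a replicate block and each library left out.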

Additional observations from a re-analysis of the deposited data

Results flagged for a closer look

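Of the 36 synthetase genes, 27 had an IFNb response that differed between Adar-null and control cells in the test of that difference itself (the interaction in edgeR's quasi-likelihood fit, Benjamini-Hochberg adjustment over all genes tested). The values that follow are the log2 fold change with IFNb in Adar-null cells less the one in control cells. Of all genes tested, 59.3% were called in this contrast, so a call alone does not set the members apart.

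Among the cytosolic genes of the ATF4 list the difference was 1.71 for Nars, 1.68 for Wars, 1.64 for Cars, 1.52 for Eprs, 1.50 for Aars, 1.43 for Lars and 1.37 for Gars. It was 1.13 for Sars, 1.05 for Iars and Tars, 0.86 for Yars, 0.59 for Mars and 0.43 for Vars. Outside that list it was 0.76 for Rars and 0.44 for Farsa, and it had the other sign for Qars at -0.66 and Kars at -0.51.

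Among the mitochondrial genes the difference was 1.06 for Ears2, 0.87 for Wars2, 0.84 for Tars2, 0.71 for Rars2, 0.64 for Nars2, 0.61 for Aars2, 0.58 for Fars2 and 0.38 for Vars2. It was -0.27 for Iars2 and -0.54 for Cars2.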

How the results depend on the processing

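Of 674 values of 34 results (counts, medians and ratios) under other settings, 647 stayed close to those reported, and none of the 180 member values reversed. With library size alone the control cytosolic median was -1.01; in Adar-null cells 6 cytosolic genes were called higher, the cytosolic median was -0.01 and the mitochondrial one 0.18. With upper-quartile scaling the cytosolic median between genotypes under IFNb was 1.03. DESeq2 called 1 mitochondrial gene lower in Adar-null cells. In the interaction 1 mitochondrial gene was called lower with upper-quartile scaling, with no filter, in DESeq2 and with the replicate block. With each library left out in turn, 1 to 3 mitochondrial genes were called higher in control cells and 3 to 5 lower, 1 to 2 lower in Adar-null cells (1 without library 2 of either Adar-null group), and in the interaction the cytosolic median ran from 0.91 (without library 1 of Adar-null with IFNb) to 0.97 and 1 to 2 mitochondrial genes were called lower. With Lars2 in the sum, the ratios were 13, 3.62, 11.2 and 9.34. The causes of these shifts were not tested.

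Libraries with the same replicate number were not seen to deviate together (correlations of -0.10 to 0.06 over 18 pairs, and 2 of 12 libraries correlated best with their own number). This cannot exclude that the numbers pair libraries, since a pairing need not leave a shared deviation. The replicate block changed the calls of Tars in Adar-null cells and of Cars2 in the interaction.

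Of 103 called member values, 14 lost the call under at least 1 setting: Dars, Kars, Aars2, Lars2 and Nars2 in control cells, Aars, Cars, Lars, Tars, Hars2, Nars2 and Vars2 in Adar-null cells, Yars2 between genotypes under IFNb, and Cars2 in the interaction. In all, 26 of the 180 member values changed their call, and the rest of these gained one. They were Rars, Cars2, Hars2, Pars2, Rars2 and Tars2 in control cells and Dars, Yars and Aars2 in Adar-null cells. Lars2 and Mars2 also gained a call between genotypes under IFNb, and Lars2 in the interaction. Mitochondrial genes have as few as 37 counts a library, which limits the size of change that can be called.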
